A study of Rattus rattus with 8 samples.

Results

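The genes described are those of glucuronidation in rat liver, the coupling of glucuronic acid to drugs, hormones and bilirubin, together with 2 enzymes that make its donor, UDP-glucuronate. They were chosen by name, as 9 symbols matched exactly to the gene symbols of the array's probe table. The choice was made with earlier results of these data known. Of these, 6 were found: the UDP-glucuronosyltransferases Ugt1a6, Ugt2a3, Ugt2b1 and Ugt2b37, and the supply enzymes Ugdh and Ugp2. Ugt1a1, Ugt2b10 and Ugt2b17 are not symbols of that table and were not analysed under these names. Whether a transferase that the table names otherwise, such as Ugt2b, is one of them under an older name is not known. The 6 genes are read by 15 of the 45904 named features and are 6 of the 16945 named genes. All 6 were above the floor for low values on every array and were among the 10944 genes tested.

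The samples were livers of 8 male rats of the WH strain, named Rattus rattus in the labels, with total RNA of each rat on 1 single-colour (Cy3) Agilent array. For 7 days, 4 rats were given plain diet (0 ppm, control) and 4 rats diet with 2500 ppm of sodium phenobarbital (NaPB), a sedative known to induce drug-metabolizing enzymes of liver through the receptor CAR. Both diets were given to rats of the same strain and sex, and the labels give no age and no genetic change.

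Glucuronosyltransferases sit in the membrane of the endoplasmic reticulum, where they transfer glucuronic acid from UDP-glucuronate to fat-soluble compounds and make them ready for bile or urine. UDP-glucuronate is made in the cytosol: Ugp2 joins glucose phosphate and UTP into UDP-glucose, and Ugdh oxidizes this to UDP-glucuronate. The transferases of the Ugt1a family are made from alternative first exons joined to shared last exons, and those of the Ugt2 families are separate genes with closely related sequences. A feature named for one of them may therefore also read relatives, which was not tested because probe sequences were not used here.

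Values are scaled intensities, where 1 is the 75th percentile of the named features of an array, and a gene is the geometric mean of its features. Low values were set to a floor of 0.03, which held 31.8% to 34.5% of the named features on each array. Arrays of the same diet correlated at r between 0.977 and 0.989 over all features. In limma, 1144 of 10944 genes (10.5%) passed a Benjamini-Hochberg adjusted p of 0.05, 6.16% higher and 4.29% lower with NaPB. The number was 698 without control replicate 1 and 625 without control replicate 2. The split into 674 higher and 470 lower genes became 632 and 628 after quantile normalization and 535 and 760 with arrays at the same median.

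Glucuronidation genes were higher with NaPB: of the 6 measured, 4 rose, none fell, and Ugt2b37 and Ugp2 did not pass. Over all genes tested, 6.16% rose. As the 6 were chosen with earlier results of these data known, this share is background and not a test. The median log2 change of the 6 was 0.87, against 0.0015 over all genes tested. In 5 of the 6 every NaPB liver lay above every control liver, where 19.1% of all genes tested had diets that did not overlap in either direction. Ugt2b1 had the largest change, about 7-fold, and Ugt1a6 and Ugdh about doubled. As livers were measured whole, a change in the share of a cell type and a change in RNA per cell cannot be told apart.

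**Figure D1:**
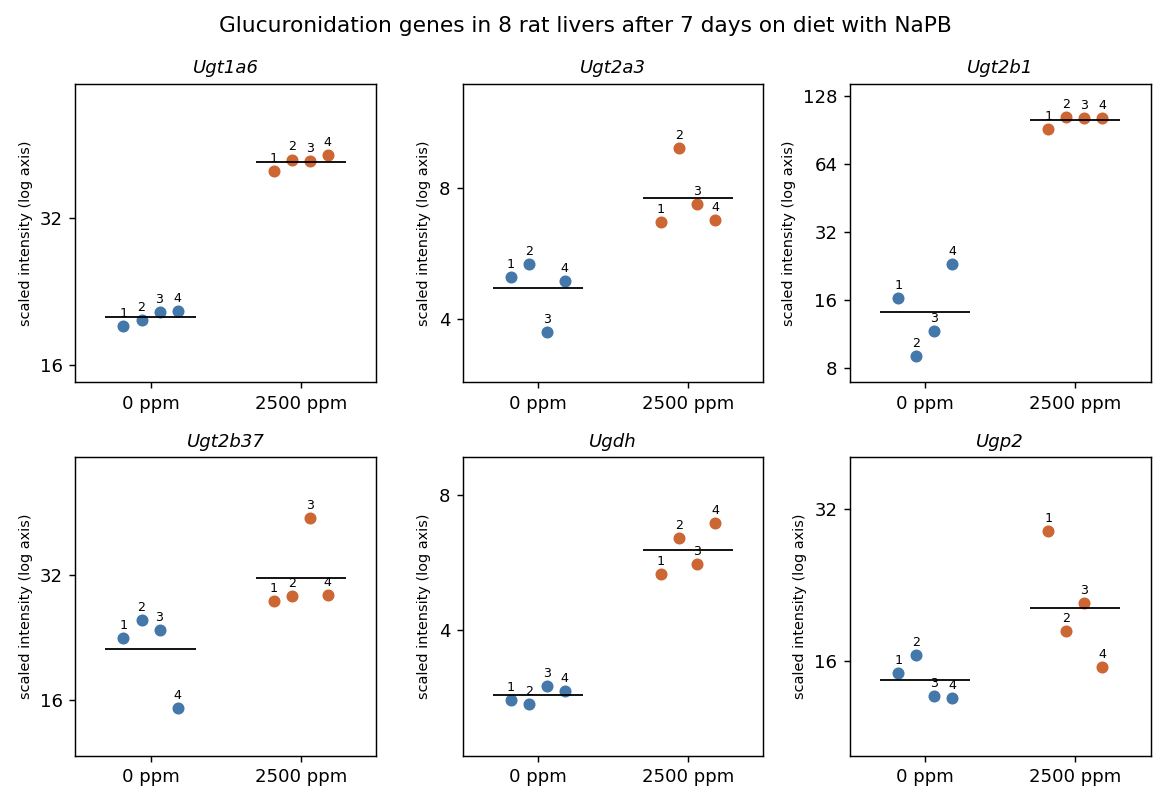
Scaled intensity (log axis) of the 6 measured glucuronidation genes in each liver, by diet; points are rats with their replicate number and bars are geometric means of 4 rats. Ugt2b1, Ugt1a6 and Ugdh separate the diets widely, Ugt2a3 and Ugt2b37 narrowly, and NaPB replicate 4 of Ugp2 lies within the control range.

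Ugt2b1, a transferase of steroids and drugs, was at 16.3, 9.04, 11.7 and 23.1 in control replicates 1 to 4 and at 91.1, 103, 103 and 102 in NaPB replicates 1 to 4. The lowest NaPB liver was far above the highest control liver. The log2 change was 2.82 ± 0.25 (here and below the SE of the difference from limma, n = 4 rats per diet), a 7.05-fold rise with an adjusted p of 0.000464. It was rank 21 of all genes tested by size of rise. The control livers spread widely, with an SD of 0.59 on the log2 scale, against 0.09 in the NaPB livers. This difference in spread was not tested.

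Ugt1a6, which conjugates small planar phenols such as the breakdown products of many drugs, was even within each diet. Its control values were 19.2, 19.8, 20.5 and 20.7, and its NaPB values 39.9, 42.0, 41.8 and 42.9. The rise was 1.06 ± 0.07 on the log2 scale, or 2.08-fold (adjusted p = 6.71e-05). The SD within a diet was 0.05 and 0.04 on the log2 scale, the smallest among the gene means of the members in both diets. Members are means of 1 to 4 features, 4 for Ugt1a6, so their spreads are not directly comparable. Among control livers, replicate 3 was highest in features 1 and 2 (13.0 and 11.9). It was lowest in features 3 and 4 (33.0 and 34.5), so unlike deviations partly cancel in the mean. Its relative Ugt1a1, the bilirubin transferase, lies near it in the reference gene table of Rattus rattus, but was not analysed here.

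Ugt2a3, a transferase of bile acids in human liver, is read by 1 feature. It was at 5.01, 5.35, 3.74 and 4.90 in control livers and at 6.68, 9.89, 7.36 and 6.76 in NaPB livers. The diets did not overlap, and NaPB replicate 2 was highest. The log2 change was 0.69 ± 0.16, or 1.61-fold (adjusted p = 0.0276). The call was lost without control replicate 1 (adjusted p = 0.0553), control replicate 3 (0.0551) or NaPB replicate 3 (0.0547), and when all genes were tested without a filter on low values (0.0861).

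Ugt2b37, a further steroid and drug transferase of the Ugt2b family, was at 22.6, 24.8, 23.5 and 15.3 in control livers and at 27.6, 28.3, 43.7 and 28.6 in NaPB livers. Control replicate 4 was low and NaPB replicate 3 was high, while the other livers of each diet lay close together. The mean change was 0.57 ± 0.20 on the log2 scale and did not pass (adjusted p = 0.102), with a 95% interval from 0.13 to 1.02. Without control replicate 4 and NaPB replicate 3 together, a setting added after the values were seen, it was 0.25 (adjusted p = 0.104). The 4 features behind this mean did not agree, as described below for the single features.

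Of the supply enzymes, Ugdh, which makes UDP-glucuronate, rose. Its control livers were at 2.81, 2.74, 3.00 and 2.93 and its NaPB livers at 5.34, 6.42, 5.60 and 6.92. The diets were far apart relative to the spread within them. The log2 change was 1.08 ± 0.10, or 2.11-fold (adjusted p = 0.000451).

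Ugp2, which makes UDP-glucose for both glycogen and glucuronidation, was at 15.2, 16.5, 13.7 and 13.6 in control livers. In NaPB livers it was at 28.9, 18.4, 20.9 and 15.6. NaPB replicate 1 was the highest, and NaPB replicate 4 lay below control replicate 2. Its change of 0.48 ± 0.18 on the log2 scale did not pass (adjusted p = 0.124, 95% interval 0.08 to 0.87), and was 0.31 without NaPB replicate 1. The spread was wider among NaPB livers, with an SD of 0.38 on the log2 scale against 0.13 among control livers.

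Differences between the changes of members were tested within livers, as the log2 value of one member minus that of another, in 15 pairs by an exact permutation test over the 70 splits of the 8 livers. Ugt2b1 rose more than Ugt1a6 by 1.76 ± 0.29 on the log2 scale, and more than Ugdh by 1.74 ± 0.29 (SE between livers, n = 4 per diet). It also rose more than Ugt2a3 by 2.13 ± 0.33, than Ugt2b37 by 2.25 ± 0.47 and than Ugp2 by 2.34 ± 0.41. These 5 pairs had the smallest two-sided exact p that the design allows, 0.0286. After Benjamini-Hochberg adjustment over the pairs, 0 of 15 passed (lowest adjusted p = 0.0857). With only 5 pairs at that smallest p, none could pass whatever the size of its difference, so the adjusted test could not decide these pairs. No pair without Ugt2b1 had an unadjusted p under 0.05. Ugt1a6 and Ugdh changed by nearly equal amounts, with a difference of -0.02 ± 0.07 (exact permutation p = 0.771).

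The single features showed where a gene's mean combined unlike values. Of the 15 features, 11 separated the diets, where 18.4% of the 30504 features tested did so, and the same 11 passed the threshold in a fit over all features, where 5.73% were higher. The 4 that did neither were both features of Ugp2 and 2 of the 4 features of Ugt2b37. The 2 features of Ugt2b1 changed by 2.80 and 2.83 on the log2 scale, and those of Ugdh by 1.12 and 1.03. The 2 features of Ugp2 changed by 0.50 and 0.45 and followed each other across the livers, so its uneven NaPB values were read by both.

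The features of Ugt2b37 fell into pairs by the accession that the probe table gives them. Whether both accessions stand for the same gene is not known, so the gene mean may combine different transcripts. The pair under NM_001007264 averaged 38.2, 41.9, 40.5 and 41.9 in control livers and 64.7, 66.3, 67.4 and 63.8 in NaPB livers. These values separated the diets with little spread. With features averaged by symbol and accession, an alternative added after the values were seen, this pair rose by 0.69 ± 0.07 on the log2 scale (limma, adjusted p = 0.000678 over 11199 units). The pair under M33747 averaged 13.3, 14.7, 13.6 and 5.56 in control livers and 11.8, 12.1, 28.3 and 12.8 in NaPB livers. Without control replicate 4 and NaPB replicate 3, the 6 livers lay between 11.8 and 14.7. This pair changed by 0.45 ± 0.38 and did not pass (adjusted p = 0.483). The low value of control replicate 4 and the high value of NaPB replicate 3 in the gene mean therefore came from the M33747 pair.

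**Figure D2:**
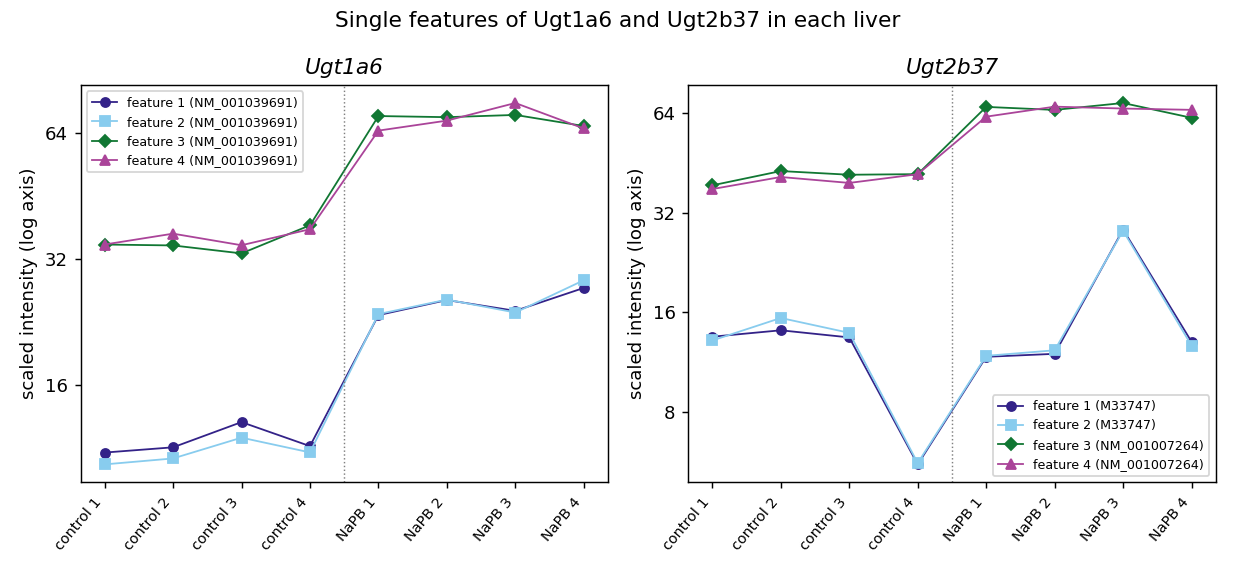
Scaled intensity (log axis) of each feature of Ugt1a6 and Ugt2b37 in the 8 livers, control left and NaPB right of the dotted line; each line is 1 feature. The features of Ugt1a6 step up with the diet, as do features 3 and 4 of Ugt2b37, whereas features 1 and 2 of Ugt2b37 differ mainly in control replicate 4 and NaPB replicate 3. Levels of different features are not comparable.

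The 4 features of Ugt1a6 formed pairs too, but all separated the diets. Features 1 and 2 rose by 1.10 and 1.21 on the log2 scale, and features 3 and 4 by 0.98 and 0.93. All carry the same accession, NM_001039691. Features of a pair differed by an SD of 0.06 and 0.07 between livers, and features of different pairs by 0.16 to 0.21.

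Other transferases named in the probe table rose as well. The list of these, also drawn up with earlier results of these data known, held 20 symbols, of which 7 were found. All 5 that could be tested rose, with a median log2 change of 0.89, where 6.16% of all genes tested rose. Ugt2b7 lay at the floor in all 4 control livers and at 0.176, 0.249, 0.149 and 0.314 in NaPB livers, so it was at least 7.10-fold higher. Ugt2b7 passed the filter only through its NaPB livers, so a rise was the only change that could be called. With a floor of 0.1 its log2 change was 1.09. Ugt2b34 rose from a mean of 0.795 to 1.62, by 1.03 ± 0.13 on the log2 scale (adjusted p = 0.00204), and Ugt1a9 from 0.108 to 0.201, by 0.89 ± 0.16 (adjusted p = 0.0108). Ugt2b36 and Ugt2b5, named here after their values were seen, rose by 0.61 ± 0.07 and 0.46 ± 0.07. The remaining pair, Ugt2a1, an olfactory transferase, and Ugt8, which makes the galactolipid of myelin, were at the floor on all 8 arrays.

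The diets did not overlap in any of the 5 tested, where 19.1% of all genes tested had diets that did not overlap in either direction. For Ugt2b7 the filter largely fixed this separation, as all its control livers lay at the floor. Ugt2b36 was at 48.4 to 55.5 in control livers and 75.2 to 81.3 in NaPB livers. Ugt2b5 was at 112 to 128 in control livers and 160 to 168 in NaPB livers. With the members, 8 of the 10 transferase symbols tested rose, where 6.16% of all genes tested did. Among the 8 was Ugt2b7, for which only a rise could be called. The exceptions were Ugt2b37 and Ugt2b, a symbol with features of its own.

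The steps that lead to UDP-glucose showed no common change. Of 7 tested genes, 1 fell and none rose, with a median of -0.08, where 4.29% of all genes tested fell and 6.16% rose. Pgm1, a phosphoglucomutase that makes the glucose phosphate used by Ugp2, was at 3.03, 3.01, 2.85 and 2.42 in control livers and at 2.14, 2.42, 1.87 and 2.17 in NaPB livers. It fell by 0.40 ± 0.11 on the log2 scale (adjusted p = 0.0488). Leaving out control replicate 1, 2 or 3, or NaPB replicate 1, 3 or 4, ended the call (highest adjusted p = 0.127). So did testing without a filter on low values (adjusted p = 0.102). The hepatic glucose transporter Slc2a2 was at -0.23 ± 0.15 and did not pass. The glucose phosphatase gene G6pc was at -0.08 ± 0.59.

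Among 13 tested genes for other uses of UDP-glucose and UDP-glucuronate, 1 rose and none fell, with a median of -0.02. The shares over all genes tested were 6.16% and 4.29%. The riser was Gyg1, the protein primer of glycogen, which went from a mean of 0.157 to 0.228 (0.54 ± 0.10 on the log2 scale, adjusted p = 0.0114). Gys2, the glycogen synthase of liver, was at -0.14 ± 0.09 and did not pass. Uxs1, which converts UDP-glucuronate to UDP-xylose, was at -0.14 ± 0.12.

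Transport and recycling of the nucleotide were read by 13 tested genes, of which 2 rose and none fell (median 0.10). Of all genes tested, 6.16% rose and 4.29% fell. Entpd5, which splits UDP inside the endoplasmic reticulum, was at 7.97, 8.60, 7.24 and 6.79 in control livers and at 13.5, 12.6, 14.3 and 14.7 in NaPB livers. It rose by 0.85 ± 0.10 on the log2 scale (adjusted p = 0.00125). Ctps2, which makes CTP from UTP, was at 0.873, 0.646, 0.875 and 0.970 in control livers and at 1.35, 1.46, 1.75 and 1.51 in NaPB livers, a rise of 0.86 ± 0.14 (adjusted p = 0.0063). Both genes separated the diets. Slc35d1, which carries UDP-glucuronate into the endoplasmic reticulum, had a change of -0.30 ± 0.11 that missed the threshold (adjusted p = 0.136).

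The list for the further fate of glucuronate held genes that moved in both directions. Of 12 tested, 2 rose and 3 fell, with a median of -0.12, where 6.16% of all genes tested rose and 4.29% fell. These counts include Aldh1a1 and Enpp1, which are not steps of the routes described below. Among the steps of those routes, Cryl1 rose, with a call that several settings ended, and Rgn and Gulo fell. In rats, glucuronate can be turned into ascorbate, by way of Akr1a1, Rgn and Gulo. Rgn, the lactonase of that route, was at 36.5, 30.9, 30.0 and 29.8 in control livers and at 14.3, 15.9, 12.4 and 12.2 in NaPB livers, a fall of 1.22 ± 0.11 on the log2 scale (adjusted p = 0.000477). Gulo, which makes the last step to ascorbate, was at 12.4, 13.3, 14.4 and 13.8 in control livers and at 7.40, 9.02, 6.40 and 9.42 in NaPB livers. It fell by 0.76 ± 0.13 (adjusted p = 0.00874), and both genes separated the diets. Akr1a1, the reductase at the start of the route, had a change of 0.20 ± 0.10 that missed the threshold (adjusted p = 0.233).

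The list also held the pentose branch of glucuronate breakdown. Cryl1, a dehydrogenase of that branch, was at 3.05, 3.15, 2.14 and 2.86 in control livers and at 6.60, 5.14, 14.0 and 4.67 in NaPB livers, with NaPB replicate 3 highest. It rose by 1.31 ± 0.32 (adjusted p = 0.0356), but the call was lost without any 1 control array or without NaPB replicate 1 (adjusted p up to 0.0809). The call was also lost without a filter on low values (adjusted p = 0.124). Aldh1a1, a retinal dehydrogenase, rose by 4.34 ± 0.34 (adjusted p = 0.000233). Enpp1, a nucleotide pyrophosphatase, fell by 0.37 ± 0.10 (adjusted p = 0.0399). This call was lost without any array other than control replicate 3 (adjusted p up to 0.101), and with its brightest feature (0.065). Without a filter on low values it was lost too (adjusted p = 0.0735). Miox, which opens the inositol ring to glucuronate, had a change of -0.87 ± 0.26 that missed the threshold (adjusted p = 0.069). Gusb, which cleaves glucuronides in lysosomes, was at -0.13 ± 0.08, with 4 of its 20 feature values at the floor in each diet.

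**Figure D3:**
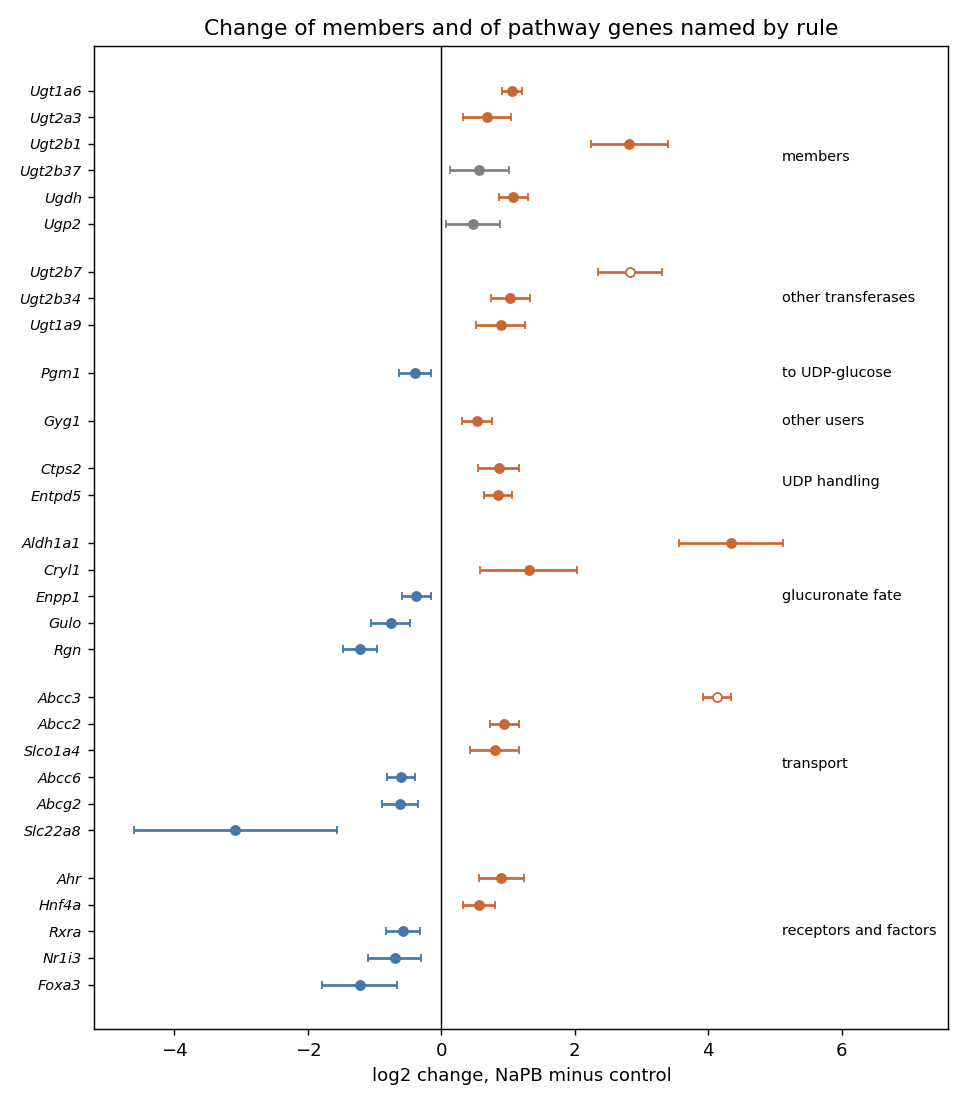
Log2 change (NaPB minus control) of the 6 measured members and of the pathway genes named by rule, grouped by role; points are differences of means of 4 rats per diet and bars are 95% intervals from limma. Orange points rose, blue points fell and grey points did not pass an adjusted p of 0.05, and open points had all control values at the floor. Transferases and Ugdh lie to the right of 0, and Rgn and Gulo to the left.

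The list of carriers drawn up for export and uptake of glucuronides was split, with 4 of 13 tested genes higher and 3 lower (median -0.05). It was not limited to proven carriers of glucuronides, and Abcg2, for instance, exports sulfates and drugs. Slco1a2 and Slco1b2 were on the list but are not symbols of the probe table. Over all genes tested, 6.16% were higher and 4.29% lower. Abcc2, which pumps glucuronides into bile, was at 15.8, 16.1, 13.9 and 18.1 in control livers and at 28.9, 32.7, 29.9 and 31.3 in NaPB livers, a rise of 0.95 ± 0.09 on the log2 scale (adjusted p = 0.000722). Abcc3, which pumps them into blood, was at the floor in all control livers and at 0.553, 0.553, 0.440 and 0.569 in NaPB livers. It was at least 17.5-fold higher (log2 change 2.40 with a floor of 0.1). Abcc3 is among the 4 counted as higher, but passed the filter only through its NaPB livers, so only a rise could be called. Slco1a4, an uptake carrier of organic anions, rose by 0.80 ± 0.16 (adjusted p = 0.0183), a call lost when no filter on low values was set (0.066).

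Of the carriers that fell, Abcc6 was at 11.4, 13.3, 11.0 and 12.6 in control livers and at 8.41, 7.90, 7.11 and 8.27 in NaPB livers, a fall of 0.61 ± 0.09 on the log2 scale (adjusted p = 0.00479). Abcg2, an exporter of sulfates and drugs, fell by 0.62 ± 0.12 (adjusted p = 0.0138), a call lost without control replicate 4 and NaPB replicate 3 together (0.0664). Slc22a8, an importer of organic anions, fell by 3.09 ± 0.67, with control livers between 3.47 and 26.2 and NaPB livers between 0.614 and 3.14 (adjusted p = 0.0229). Leaving out control replicate 1, 2 or 3, or either of NaPB replicates 3 and 4, ended that call (highest adjusted p = 0.0666). So did testing without a filter on low values (adjusted p = 0.0917).

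Of 17 tested receptors and liver factors that are known to act on glucuronidation genes, 2 rose, 3 fell and 12 did not pass (median -0.04). Among all genes tested, 6.16% rose and 4.29% fell. The diets did not overlap in 7 of the 17, against 19.1% of all genes tested. Ahr, the aryl hydrocarbon receptor that acts on Ugt1a6, rose by 0.90 ± 0.15 on the log2 scale (adjusted p = 0.00768; 0.40 with a floor of 0.1). Hnf4a, a hepatocyte factor, rose by 0.57 ± 0.10 (adjusted p = 0.0123). Foxa3 fell by 1.22 ± 0.25 (adjusted p = 0.0179), a call lost when no filter on low values was set (0.0717). Rxra, the partner of CAR and PXR, fell by 0.57 ± 0.11 (adjusted p = 0.016). The CAR gene itself, Nr1i3, fell by 0.70 ± 0.18 (adjusted p = 0.039). Leaving out control replicate 1, 2 or 3, or NaPB replicate 1, 3 or 4, ended this call (highest adjusted p = 0.0901). So did testing without a filter on low values (adjusted p = 0.119). Nfe2l2, which encodes Nrf2, was at 0.18 ± 0.16.

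All 4 measured reference genes of phenobarbital exposure rose. Cyp2b2 was between 4.41 and 6.49 in control livers and between 111 and 138 in NaPB livers. Among these genes the change of Ephx1, the microsomal epoxide hydrolase, was 2.49 ± 0.12 and that of Cyp3a23/3a1, a drug-oxidizing P450, 2.39 ± 0.17 on the log2 scale, beside 2.82 for Ugt2b1.

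For each member that rose, the 2 genes with the most similar log2 profile over the 8 livers were taken, by the root mean square distance after centring each gene on its own mean. For Ugt1a6 these were Parp1, a DNA repair enzyme, at a distance of 0.06, and Gsta4, a glutathione transferase, at 0.08. Parp1 was also nearest to Ugdh, at 0.07, followed by the carbonyl reductase Cbr1 at 0.09. For Ugt2b1 they were Ephx1 at 0.31 and the chemokine Cxcl9 at 0.39. For Ugt2a3 they were the kinase Mapkapk3 at 0.15 and Galp at 0.15, the latter at or near the floor in control livers. These distances describe the 8 livers, which share the step between diets.

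Marker lists of liver cell types were read for their levels, which do not measure the share of each cell type. None of 6 hepatocyte markers passed, and their summed scaled intensity was 1162 to 1274 in control livers and 1015 to 1160 in NaPB livers. All their log2 changes were negative, from -0.08 (Tf) to -0.47 (Apoa1), and the ranges of the sums did not overlap. Of 4 tested bile duct markers, Epcam rose by 1.60 ± 0.11 on the log2 scale, from a mean of 0.249 to 0.757. Krt19, Krt7 and Spp1 did not pass and lay close to the floor, with means of 0.0643, 0.0592 and 0.0396 in NaPB livers. The list's sum, 0.395 to 0.482 in control and 0.885 to 1.06 in NaPB livers, was therefore mostly Epcam. Sox9 was at the floor on all arrays. Markers that fell were Cd163 of Kupffer cells (0.57 ± 0.11), Kdr of sinusoidal endothelium (0.41 ± 0.08), and Reln (0.33 ± 0.08) and Pdgfrb (1.10 ± 0.11) of stellate cells. The other macrophage markers did not pass, with log2 changes of 0.16 (Cd68), -0.21 (Marco), -0.20 (Clec4f) and -0.10 (Csf1r). Nor did the stellate markers Des, Lrat and Col1a1, at -0.20, -0.35 and -0.43. The sums over 5 macrophage markers were 25.6 to 30.0 in control and 22.5 to 28.5 in NaPB livers. They were 14.6 to 16.2 and 10.9 to 13.0 over 4 endothelial markers, and 1.73 to 2.25 and 1.13 to 1.36 over 5 stellate markers. Most of the macrophage sum was Clec4f, with means of 21.7 in control and 18.9 in NaPB livers. Most of the endothelial sum was Kdr, with means of 12.7 in control and 9.61 in NaPB livers. Pecam1, Lyve1 and Clec4g did not pass, with log2 changes of -0.02, -0.001 and -0.26. The part of these shifts in the glucuronidation results was not tested.

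Markers of lymphocytes and of neighbouring organs were mostly low, and none that was tested passed. The lymphocyte markers Cd3e and Cd2 were at the floor on all arrays, as were Nphs1 of kidney, Vil1 and Cdx2 of intestine and Prss1 of pancreas, organs of which kidney and intestine also make glucuronides. Others of these lists were above the floor: Ptprc of lymphocytes was at 0.197 to 0.269 and Fabp2 of intestine at 0.391 to 0.715 over the 8 livers. Cpa1 of pancreas ranged from the floor to 0.348, with the highest values in control replicate 4 and, at 0.263, NaPB replicate 1. The 3 red blood cell markers summed to 13.2 to 15.0 in control livers and 7.70 to 13.6 in NaPB livers, and none passed. Their log2 changes were -0.44 (Hbb), -0.51 (Slc4a1) and -0.89 (Alas2, limma adjusted p = 0.0521).

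Across 16 alternative settings each, the changes of Ugt2b1, Ugt1a6 and Ugdh passed every time. Ugt2b1 lay between 2.60 and 3.05 on the log2 scale, Ugt1a6 between 0.93 and 1.08, and Ugdh between 1.01 and 1.13. Ugp2 passed under none of them, at 0.31 to 0.60 (adjusted p from 0.0634 to 0.273). Ugt2b37 passed under 1, its brightest feature, which is one of the NM_001007264 pair.

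**Figure D4:**
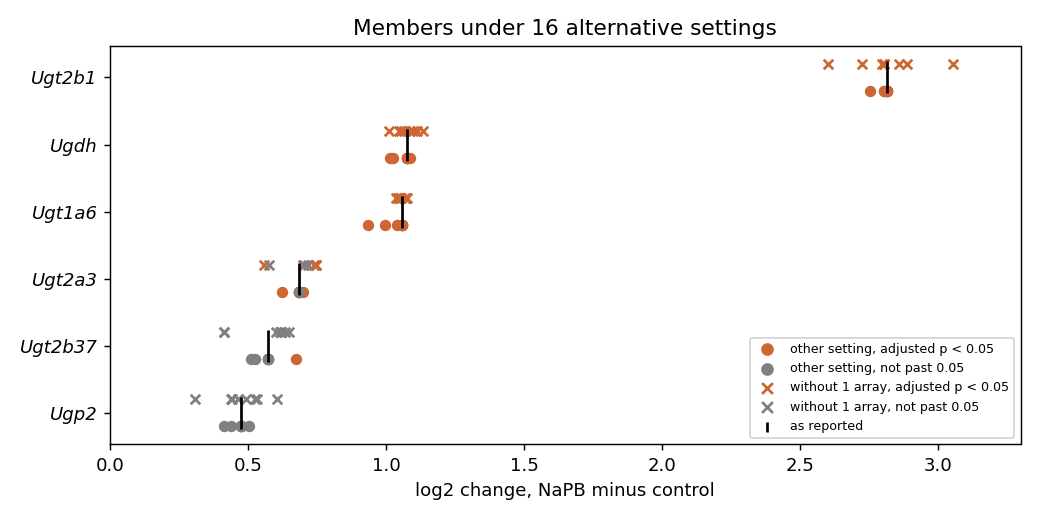
Log2 change (NaPB minus control) of each measured member under 16 alternative settings; crosses leave out 1 array, circles are other settings, vertical bars are the values as reported, and orange marks an adjusted p under 0.05 in limma. The 3 upper genes stay orange throughout, Ugt2a3 turns grey under 4 settings, and Ugp2 is grey under all.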

How the data were processed

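The deposited values are linear spot intensities. Their 75th percentiles were nearly equal, at 1.08 to 1.09, so an earlier scaling array by array is inferred. The submitters' processing notes name Agilent Feature Extraction 10.7. Background subtraction, flags and the scaling step are not stated there. Genes were named by the platform's probe table. The reference table, an assembly of Rattus rattus, held 0 of the members' accessions, so no coordinates are given.

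Intensities were scaled so that the 75th percentile of named features was 1 on every array. A floor of 0.03 was applied before taking log2, and a gene is the mean of its features. Genes had to exceed the floor on 3 or more arrays of a diet. They were tested with limma 3.58.1 in R 4.3.3 (lmFit and eBayes, two-sided, Benjamini-Hochberg over all genes tested, threshold 0.05). The fit was tested on simulated data. The 8 arrays limit the precision. Figures were drawn with matplotlib 3.10.9.

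The members, the lists and the floor were chosen with earlier results of these data known. All members were named. From each pathway list came the 3 largest rises and 3 largest falls among genes that passed, and for each member that passed its 2 nearest profiles. Alternatives were quantile normalization, arrays at the same median, a floor of 0.1, no filter, genes above the median level, a trended and robust prior, the brightest feature, the replicate number as a block and leaving out each array. Features averaged by accession, the joint omission of 2 arrays and the omissions in the pair test were added after the data were seen. No batch is given, so none was tested.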

Additional observations from a re-analysis of the deposited data

Results flagged for a closer look

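In groups of 4 rats, a rat was listed when its gap to the nearest other rat took up a larger part of its group's range on the log2 scale than Dixon's 95% critical value. Chance lists about 1 group in 20, and 76 groups of gene means and 30 groups of member features were examined.

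Among the members, Ugt2b1 in NaPB replicate 1 was at 91.1, against 102 to 103 in the other NaPB livers. Ugt2b37 in NaPB replicate 3 was at 43.7, against 27.6 to 28.6. Its M33747 features gave that liver 28.5 and 28.2, against 11.7 to 13.0 and 11.8 to 12.7, and gave control replicate 4 values of 5.54 and 5.59, against 13.4 to 14.1 and 13.1 to 15.4 in the other control livers.

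Among the other genes named, Aldh1a1 in NaPB replicate 3 was at 91.7, against 86.0 to 86.7. Abcc3 in NaPB replicate 3 was at 0.440, against 0.553 to 0.569. Ephx1 in NaPB replicate 4 was at 53.7, against 45.7 to 46.0. Mapkapk3 in NaPB replicate 2 was at 1.96, against 1.20 to 1.25. Galp was at 0.0309 in control replicate 1, with the other control livers at the floor, and at 0.0641 in NaPB replicate 2, against 0.0387 to 0.0420.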

How the results depend on the processing

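Of 96 member values under 16 alternatives, 91 kept their direction and their side of the threshold, 4 were lost (all Ugt2a3), 1 was gained (Ugt2b37 with its brightest feature, 0.67) and 0 reversed. The number of members that rose was 4 in the analysis reported, 3 without a filter, 5 with the brightest feature and 3 or 4 without 1 array. It was 3 without control replicate 4 and NaPB replicate 3 together, which ended the calls of Ugt2a3, Enpp1, Abcg2, Foxa3, Mapkapk3 and Galp (adjusted p from 0.0611 to 0.101). The number of changed genes went from 1144 to 739 without a filter, where 16945 genes were tested, and to 583 with the replicate number as a block, which left the members at 4. Among the other genes named, that block ended the calls of Pgm1, Cryl1, Enpp1, Slco1a4, Abcg2, Hnf4a, Nr1i3 and Galp, with adjusted p from 0.0542 (Hnf4a) to 0.122 (Enpp1). Testing without a filter ended those of Pgm1, Cryl1, Enpp1, Slco1a4, Slc22a8, Foxa3, Nr1i3, Mapkapk3 and Galp (adjusted p from 0.066 to 0.124). Same-numbered rats are different animals, their deviations correlated at -0.13 to 0.08, and 2 of 8 arrays were closest to their own number. Without 1 array the number of changed genes was 625 to 980. No pair of members passed after adjustment under any setting run, but the smallest exact p that so few livers allow left little room for another outcome. The scalings moved the median of all genes to -0.03 and -0.06. Which spots were above background on the scanner is not given in the sources used here, so the floor stands in for it.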

Other observations

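Ugt2b, a symbol of the probe table with 3 features under NM_031533 that was in no list, was chosen for its values. It was at 5.26, 5.04, 5.39 and 9.09 in control replicates 1 to 4 and at 8.54, 9.26, 5.13 and 9.81 in NaPB replicates 1 to 4. The change between diets was 0.40 ± 0.25 on the log2 scale and did not pass (limma, adjusted p = 0.338). The 2 livers that stood apart from the rest of their diet, control replicate 4 and NaPB replicate 3, are those that stood apart in the M33747 features of Ugt2b37, in the opposite direction. All 3 features of Ugt2b showed it, as in feature 2, at 68.4, 58.9, 68.2 and 112 in control livers and 107, 115, 55.8 and 110 in NaPB livers.

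After centring within each diet, Ugt2b was the second nearest of all genes tested to the mirror image of the M33747 profile, at a root mean square distance of 0.21. The nearest, Nfe2, was close to the floor, at 0.030 to 0.070. Among genes that ran the same way as the M33747 features, Gstm4, a glutathione transferase, was at 1.95, 2.02, 2.14 and 1.15 in control livers and at 3.60, 2.59, 5.09 and 3.75 in NaPB livers. These likenesses were found by search and rest on 2 livers, and no test was made of them.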
